A study of Mus musculus with 8 samples.

Results

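The Rab genes encode small GTPases that direct membrane traffic, and their transcripts were followed here in haematopoietic stem cells (HSCs) of Nupr1-/- and wild type mice. The members were taken by name from the table of normalised reads: every symbol made of Rab, a number and at most 2 further letters or digits. That rule gave 49 of 11854 named genes. Of these, 46 are Rab GTPases; Rab3ip encodes an exchange factor that activates Rab8, and Rab10os and Rab26os are RNAs named for lying opposite Rab10 and Rab26. Another 14 annotated protein-coding genes that meet the rule, Rab15, Rab19, Rab25 and Rab30 among them, were not analysed here.

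A Rab protein cycles between a GTP-bound form that recruits effectors to a membrane and a GDP-bound form that is extracted into the cytosol. Exchange factors (GEFs) load GTP, GTPase-activating proteins (GAPs) end the active state, and escort proteins present new Rabs for the lipid modification that anchors them. Each Rab marks its own compartments, and in blood cells Rabs also serve the granules of platelets, mast cells and neutrophils.

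The study sequenced polyA RNA of HSCs sorted from bone marrow nucleated cells, 1 library per mouse. The Nupr1-/- group held 4 mice and the wild type group 4, all of the C57BL/6 strain. Nupr1 encodes a small chromatin-associated stress protein, and the study's title ties it to HSC quiescence and p53 signalling. The sources used here do not give the age or sex of the mice, nor which part of Nupr1 was deleted. Libraries were made with Nextera XT, so a read carries no information on the strand it came from. Values are reads per gene divided by the library's size factor, called normalised reads below; the p-values measure the spread between mice.

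The recovered depth was 2296101 to 3959564 reads in the Nupr1-/- libraries and 3340217 to 4769401 in the wild type libraries. Nupr1 itself was read in every library, at 179.4, 173.3, 200.6 and 118.5 normalised reads in the libraries labelled Nupr1-/- and at 285.5, 134.0, 245.3 and 318.2 in wild type libraries. The groups overlapped (log2 difference -0.50 ± 0.34 SE, limma adjusted p = 0.433), so these reads do not separate the genotypes. Xist, the RNA of the inactive X chromosome of females, had 107.2 to 159.3 normalised reads in the 4 Nupr1-/- libraries and 0 to 11.8 in the 4 wild type libraries; genotype and sex therefore cannot be told apart in any comparison here. Of 16 genes on the HSC marker list, 15 were tested and 0 passed. The list summed to 9535 to 11966 normalised reads in Nupr1-/- libraries and 10044 to 13117 in wild type libraries. It includes Cd48, taken up below, which is low on HSCs, so the sum is not one of HSC genes alone. Of 13 tested megakaryocyte and platelet markers 5 rose (Nfe2, Itga2b, Gp9, Vwf and Pf4), against 1.68% of all tested genes, and the list summed to 7306 to 8282 in Nupr1-/- libraries and 5417 to 6628 in wild type libraries. The defining markers Gp5 and Gp1bb were at 0 in some wild type libraries. Pf4 passed in 1 of 8 fits with 1 library left out. Of 5 tested erythroid markers Klf1 rose and 4 did not pass, and 2 of the 5 lay below 0. Their sums were 495 to 726 in Nupr1-/- libraries and 244 to 749.9 in wild type libraries, highest in wild type library 2. Klf1 had only 0 to 2.99 normalised reads in wild type libraries, and it passed in 1 of 8 fits with 1 library left out. Of 3 tested neutrophil and monocyte markers 0 passed, with sums of 2437 to 3956 in Nupr1-/- libraries and of 3280, 2699, 5800 and 5379 in wild type libraries 1 to 4. Of 2 tested lymphoid markers 0 passed, with sums of 308 to 361 in Nupr1-/- libraries and of 239.5, 523, 823 and 1134 in wild type libraries 1 to 4. Wild type libraries 3 and 4 thus had the highest sums on both lists. Cd48, which is low on HSCs and higher on later progenitors, had 0, 4.99, 3.53 and 12.96 normalised reads in Nupr1-/- libraries, 0 in wild type libraries 1 and 2, and 114 and 105 in wild type libraries 3 and 4. After removal of each library's trend with GC content and length, described below, 0 of the 5 megakaryocyte genes passed (limma adjusted p 0.0553 to 0.488), nor did Klf1 (0.147). The part of these other cell types in the Rab results was not tested, and in bulk libraries fewer cells of a type and less RNA per cell cannot be told apart. On the first principal component, with 25.6% of the variance, wild type library 2 lay far from the other 7.

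Several results below concern closely related genes, so the stretch that encodes the nucleotide-binding start of the protein is shown for 4 pairs of paralogues in which 1 or both members carry a result. Each stretch is 192 bases of coding sequence on the coding strand, 5′ to 3′, from GENCODE M21 (mm10). Capitals mark the codons of the phosphate-binding P-loop and, further 3′, those of the conserved switch II motif.
Rab8b: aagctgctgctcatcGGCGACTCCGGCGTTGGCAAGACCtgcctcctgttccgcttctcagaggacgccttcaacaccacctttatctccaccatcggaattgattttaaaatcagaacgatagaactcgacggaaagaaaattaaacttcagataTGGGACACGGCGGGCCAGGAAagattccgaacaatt
Rab8a: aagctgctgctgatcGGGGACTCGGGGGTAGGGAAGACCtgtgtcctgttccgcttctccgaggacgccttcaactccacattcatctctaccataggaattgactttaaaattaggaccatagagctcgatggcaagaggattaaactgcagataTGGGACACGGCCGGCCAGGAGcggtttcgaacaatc
Rab1: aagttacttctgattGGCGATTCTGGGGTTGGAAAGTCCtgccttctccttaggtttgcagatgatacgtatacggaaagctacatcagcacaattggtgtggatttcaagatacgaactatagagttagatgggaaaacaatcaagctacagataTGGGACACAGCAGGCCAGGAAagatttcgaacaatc
Rab1b: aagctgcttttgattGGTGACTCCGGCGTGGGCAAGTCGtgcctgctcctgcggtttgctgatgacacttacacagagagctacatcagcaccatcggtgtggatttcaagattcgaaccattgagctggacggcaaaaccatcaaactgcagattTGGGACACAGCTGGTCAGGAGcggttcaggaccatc
Rab2a: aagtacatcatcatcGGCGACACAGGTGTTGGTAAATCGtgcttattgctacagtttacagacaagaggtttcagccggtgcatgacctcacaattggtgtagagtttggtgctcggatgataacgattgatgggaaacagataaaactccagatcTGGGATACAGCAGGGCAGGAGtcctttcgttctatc
Rab2b: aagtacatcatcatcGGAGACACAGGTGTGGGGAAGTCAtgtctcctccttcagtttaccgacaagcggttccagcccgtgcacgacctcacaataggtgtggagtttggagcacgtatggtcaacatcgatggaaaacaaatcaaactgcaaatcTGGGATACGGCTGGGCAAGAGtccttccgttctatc
Rab6a: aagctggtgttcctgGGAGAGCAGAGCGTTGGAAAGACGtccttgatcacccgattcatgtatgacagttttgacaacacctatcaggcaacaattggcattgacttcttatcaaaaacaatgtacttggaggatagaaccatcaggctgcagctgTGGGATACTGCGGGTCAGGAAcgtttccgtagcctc
Rab6b: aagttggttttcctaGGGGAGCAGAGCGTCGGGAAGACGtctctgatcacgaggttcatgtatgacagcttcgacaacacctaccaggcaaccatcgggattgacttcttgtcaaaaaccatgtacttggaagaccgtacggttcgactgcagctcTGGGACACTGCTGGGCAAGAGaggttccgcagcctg
Over the whole coding sequence Rab8b and Rab8a were identical at 77.3% of aligned positions, Rab1 and Rab1b at 76.1%, Rab2a and Rab2b at 74.3%, and Rab6a and Rab6b at 77.4%. The first gene of each pair used fewer G and C at the third codon position: 52.2% in Rab8b against 70.0% in Rab8a, 46.3% in Rab1 against 68.7% in Rab1b, 45.8% in Rab2a against 58.3% in Rab2b, and 49.0% in Rab6a against 73.1% in Rab6b. Such a gap was not limited to pairs with a gene that fell. Neither Rab1 nor Rab1b passed the limma threshold below. Rab11a and Rab11b, of which neither passed, had 39.8% and 67.9%.

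Of 48 tested members 6 fell in Nupr1-/- HSCs (12.5%), namely Rab8b, Rab2a, Rab18, Rab6a, Rab7 and Rab21, and 0 rose. Across all 10989 tested genes 3.8% passed the same limma threshold, an adjusted p below 0.05; 2.12% fell and 1.68% rose. With the recovered reads as counts, edgeR called 4 of the 48, against 2.79% of all genes. Rab7 and Rab21 did not pass there (edgeR adjusted p 0.0605 and 0.0596). DESeq2 called 7, against 7.05% of all genes. Every Rab gene called by edgeR or DESeq2 was lower in Nupr1-/- HSCs. Under limma the remaining 42 members did not pass. At an unadjusted p below 0.05 the share of Rab genes was 18.8% (9 of 48), near the 19.7% of all genes. The groups did not overlap for 7 members (14.6%), all lower in Nupr1-/- libraries, against 5.91% of all genes that were lower without overlap and 11.7% in either direction. The median log2 difference of the 48 was -0.10, against 0.03 over all genes, and 25 of 48 lay below 0. Summed over the 46 GTPases, the Nupr1-/- libraries held 12209, 11695, 13451 and 11959 normalised reads, and the wild type libraries held 16617, 14261, 15207 and 13945. These sums include the 6 genes that fell.

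**Figure D1:**
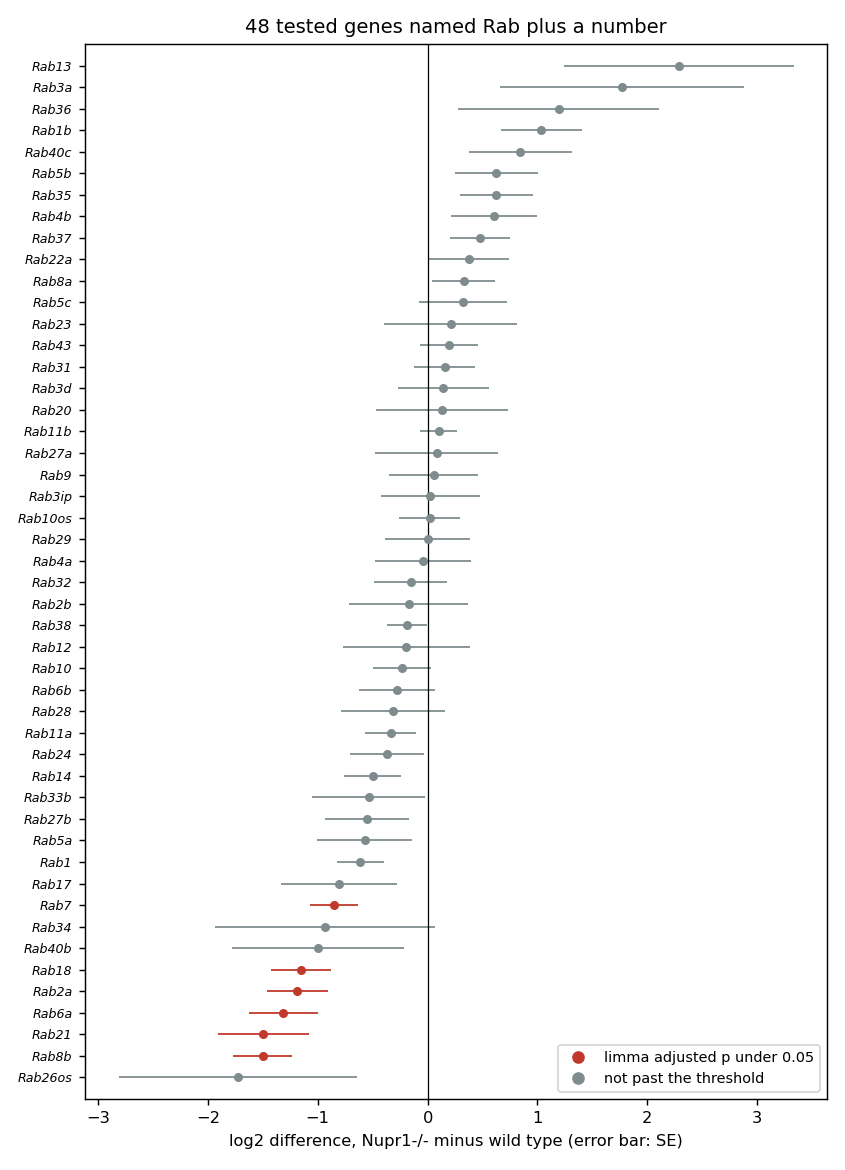
Fitted log2 difference, Nupr1-/- minus wild type, for the 48 tested members, with the standard error as a bar; red points passed the limma threshold. The 6 red genes all lie below 0, and the 23 members above 0 are all grey.

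The Rabs of the endoplasmic reticulum (ER) and Golgi held 3 of the 6. Of their 11 tested genes 3 fell, 0 rose and 8 did not pass, where 2.12% of all tested genes fell. Their median log2 difference was -0.54, and -0.37 after removal of each library's trend with GC content and length. Their transcripts had a median of 45.7% GC, against 49.5% over all tested genes. Their summed level was 2029.9 to 2748 normalised reads in Nupr1-/- libraries and 3171 to 4031 in wild type libraries, without overlap. These sums include the 3 genes that fell, so they are no separate evidence of a fall across the group. Rab2a, which works between the ER and Golgi and in lysosome fusion, had 263.9, 377.8, 494.8 and 358.3 normalised reads in Nupr1-/- libraries and 1110.6, 454.3, 978.1 and 963.7 in wild type libraries. Wild type library 2 was the low one of its group and lay inside the Nupr1-/- range; the other 3 lay above it. Rab2a fell to 374 ± 94.8 normalised reads in Nupr1-/- HSCs, against 877 ± 289 in wild type HSCs (SD, n = 4 each; log2 difference -1.19 ± 0.28 SE, limma adjusted p = 0.0275). The gene lies at chr4:8535644-8607778 on the plus strand (mm10).

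Rab6a, which organises retrograde transport through and from the Golgi, had 150.2, 193.3, 92.8 and 180.6 normalised reads in Nupr1-/- libraries and 363.5, 294.6, 507.5 and 345.4 in wild type libraries. All 4 Nupr1-/- libraries were below all 4 wild type libraries. It fell to 154 ± 44.8 in Nupr1-/- HSCs, against 378 ± 91.3 in wild type HSCs (log2 difference -1.31 ± 0.31 SE, limma adjusted p = 0.0289). Rab6a (chr7:100607410-100641268, plus strand) shares 708 bp of exon with Mrpl48 on the opposite strand, and 19.0% of its 50-base stretches occur in another gene, so some reads could belong to either gene. Mrpl48 averaged 184 ± 54.7 normalised reads in Nupr1-/- HSCs and 159 ± 41.8 in wild type HSCs (limma adjusted p = 0.783).

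Rab18, which sits on the ER and lipid droplets, had 243.5, 226.9, 175.8 and 341.7 normalised reads in Nupr1-/- libraries and 777.8, 441.5, 476.6 and 504.1 in wild type libraries. The groups did not overlap, and wild type library 1 was the highest. Rab18 fell to 247 ± 69.4 in Nupr1-/- HSCs, against 549.98 ± 154 in wild type HSCs (log2 difference -1.16 ± 0.27 SE, limma adjusted p = 0.0280).

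Both Rab1 genes, which act in transport from the ER to the Golgi, missed the threshold and had differences of opposite sign. Rab1 (Rab1a in GENCODE) had 418.5, 461.3, 380.8 and 375.0 normalised reads in Nupr1-/- libraries and 708.1, 719.3, 550.4 and 539.7 in wild type libraries. The groups did not overlap, with a log2 difference of -0.61 ± 0.22 SE and a limma adjusted p of 0.122; DESeq2 on the recovered reads gave an adjusted p of 0.0492. Rab1b had 240.6, 184.5, 419.7 and 210.2 in Nupr1-/- libraries and 103.1, 211.9, 112.7 and 88.4 in wild type libraries. Only wild type library 2 reached the Nupr1-/- values of Rab1b (log2 difference 1.04 ± 0.37 SE, limma adjusted p = 0.124; 0.0274 without that library). The other paralogues did not pass either. Rab2b had a log2 difference of -0.17 (limma adjusted p = 0.894) and Rab6b one of -0.28 (0.702). For Rab2b, 57.0% of 50-base stretches also occur in Gm43766 or another gene.

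The late endosomal and lysosomal group had 4 tested genes, of which 1 fell and 0 rose (median log2 difference -0.28). Rab7, the GTPase of late endosomes, lysosomes and autophagosome fusion, had 646.0, 460.1, 441.8 and 818.5 normalised reads in Nupr1-/- libraries and 995.7, 1141.1, 1063.8 and 953.1 in wild type libraries. The wild type libraries lay close together, and all 4 Nupr1-/- libraries were lower. Rab7 fell to 592 ± 177 in Nupr1-/- HSCs, against 1038 ± 82.2 in wild type HSCs (log2 difference -0.85 ± 0.22 SE, limma adjusted p = 0.0368). Rab7 lies at chr6:87999106-88045270 on the minus strand; 12.7% of its 50-base stretches occur in other genes, most often the pseudogene Rab7-ps1, and 204 bp of its exons lie opposite Gm5577. Rab9, Rab12 and Rab24 did not pass.

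Among 7 tested early endosomal Rabs 1 fell and 0 rose, and their summed levels overlapped, at 924 to 1362 normalised reads in Nupr1-/- libraries and 946 to 1343 in wild type libraries. Rab21, which carries integrins through early endosomes, had 61.2, 46.1, 81.3 and 43.5 normalised reads in Nupr1-/- libraries and 165.7, 166.5, 170.5 and 140.6 in wild type libraries. The groups were widely separated. These values came from 42, 37, 92 and 47 reads in Nupr1-/- libraries and 238, 169, 171 and 186 in wild type libraries. Rab21 fell to 58.0 ± 17.4 in Nupr1-/- HSCs, against 161 ± 13.7 in wild type HSCs (log2 difference -1.49 ± 0.41 SE, limma adjusted p = 0.0493). The gene lies at chr10:115287084-115315594 on the minus strand, and 0 of its 50-base stretches occur elsewhere. Rab5b, 1 of 3 Rab5 genes that drive early endosome fusion, had 146 ± 30.9 normalised reads in Nupr1-/- HSCs and 94.1 ± 20.1 in wild type HSCs and did not pass (log2 difference 0.63, limma adjusted p = 0.377).

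The recycling and exocytic Rabs were the largest group, with 13 tested genes, of which 1 fell and 0 rose (median log2 difference -0.04). Rab8b, which with Rab8a carries cargo from the Golgi and recycling endosomes to the plasma membrane, had the smallest adjusted p of all Rab genes. It had 233.3, 220.7, 276.5 and 178.7 normalised reads in Nupr1-/- libraries and 969.9, 562.7, 692.9 and 437.6 in wild type libraries. The 4 Nupr1-/- libraries lay in a narrow band below every wild type library. Rab8b fell to 227 ± 40.3 in Nupr1-/- HSCs, against 666 ± 228 in wild type HSCs (log2 difference -1.50 ± 0.27 SE, limma adjusted p = 0.00852), which was 34.1% of the wild type mean. Rab8b lies at chr9:66843664-66919687 on the minus strand, and 5.46% of its 50-base stretches occur in other genes. Rab8a averaged 239 ± 36.1 in Nupr1-/- HSCs and 189.9 ± 27.8 in wild type HSCs and did not pass (log2 difference 0.33, limma adjusted p = 0.560).

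Rab14, which moves cargo between the trans-Golgi and endosomes, had 669.4, 1013.7, 1139.7 and 798.2 normalised reads in Nupr1-/- libraries and 1806.9, 696.7, 1279.2 and 1532.8 in wild type libraries. Wild type library 2 lay among the Nupr1-/- libraries, and the other 3 lay above all of them. Rab14 did not pass (log2 difference -0.50 ± 0.26 SE, limma adjusted p = 0.294), but did without that library (-0.78, 0.0239). Rab13, which acts at cell junctions and in surface delivery, had 81.7, 74.8, 52.1 and 73.1 in Nupr1-/- libraries and 75.2, 74.9, 1.99 and 1.51 in wild type libraries. Wild type libraries 3 and 4 were near 0 and the other pair lay among the Nupr1-/- values (log2 difference 2.29 ± 1.04 SE, limma adjusted p = 0.232). With edgeR it was 0.87, and without both of those libraries, in which the neutrophil and lymphoid markers and Cd48 were also highest, it was -0.11.

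The other named genes of recycling did not pass. Their log2 differences and limma adjusted p were 0.63 and 0.305 for Rab35, a fast-recycling GTPase, 0.85 and 0.332 for Rab40c, which joins a ubiquitin ligase, and 0.60 and 0.410 for the recycling endosome gene Rab4b. They were -0.80 and 0.422 for Rab17, studied mainly in epithelial traffic, and -0.34 and 0.442 for Rab11a, of recycling endosomes. Rab11b, its paralogue, had 0.10 and 0.785. For Rab4b, 58.1% of 50-base stretches occur in another gene.

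**Figure D2:**
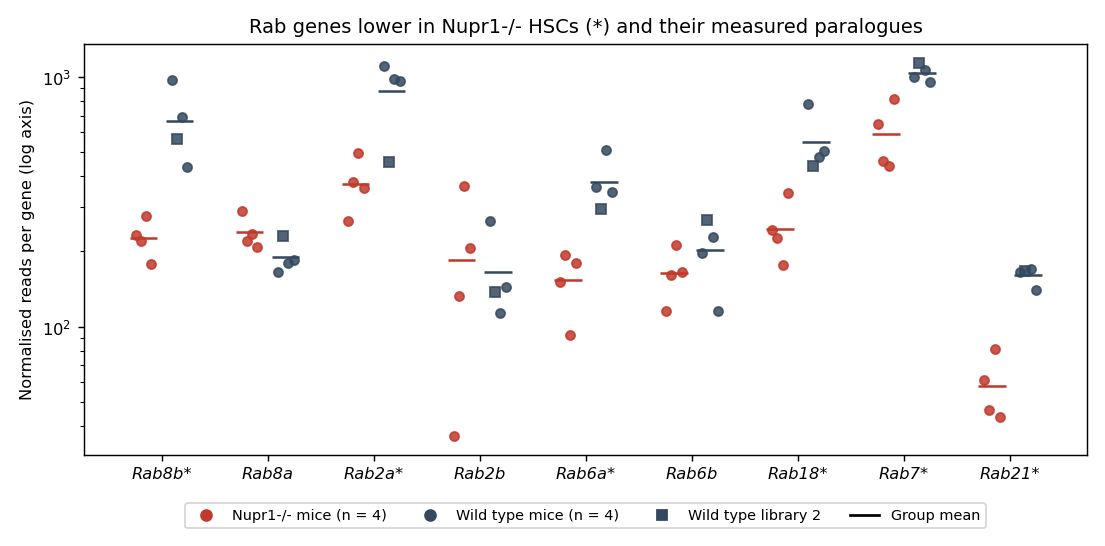
Normalised reads per gene on a log axis in each of the 4 Nupr1-/- libraries (red) and 4 wild type libraries (blue; square, wild type library 2) for the 6 Rab genes that fell (asterisks) and their measured paralogues; bars are group means. Rab8b, Rab6a, Rab18, Rab7 and Rab21 show no overlap, while Rab2a overlaps through wild type library 2 at 454.3.

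Of 8 Rabs of secretory granules and lysosome-related organelles 7 were tested, and 0 passed (median log2 difference 0.08). Their summed levels overlapped, at 2379 to 2946 normalised reads in Nupr1-/- libraries and 2461 to 3015 in wild type libraries. Rab38, which serves the biogenesis of melanosomes and platelet dense granules, had the highest level of all Rab genes. It had 1597, 1888, 1566 and 1252 normalised reads in Nupr1-/- libraries and 1782, 1463, 2227 and 1701 in wild type libraries. These overlapped (log2 difference -0.18 ± 0.18 SE, limma adjusted p = 0.608). Rab27b, a GTPase of dense granule and exosome release, averaged 110.5 ± 33.3 in Nupr1-/- HSCs and 159 ± 41.5 in wild type HSCs (log2 difference -0.55, limma adjusted p = 0.452). Rab37, found on secretory granules, averaged 339.6 ± 26.2 in Nupr1-/- HSCs and 251 ± 72.8 in wild type HSCs (0.48, 0.352). Rab3a, best known from synaptic vesicles, had 23.1 to 32.4 in Nupr1-/- libraries and 0 to 32.5 in wild type libraries (1.77, 0.397; 0.94 with edgeR, 0.73 without wild type library 2 and 3.39 without wild type libraries 3 and 4).

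Per kilobase of the longest annotated transcript and averaged over all 8 libraries, Rab38 had 1068 normalised reads, well above Rab11a at 385, Rab7 at 377, Rab2a at 293 and Rab11b at 227. The median over the 49 members was 60.2. Thus 2 of the 5 Rab genes of highest level, Rab7 and Rab2a, were among those that fell. Rab23, Rab28 and Rab29, of the cilium and trans-Golgi, did not pass, with a median log2 difference of 0.00. Of the members that are no GTPase, Rab3ip had a log2 difference of 0.03 (limma adjusted p = 0.982). Rab26os had 1.46, 7.48, 5.30 and 10.2 normalised reads in Nupr1-/- libraries and 25.1, 12.8, 16.0 and 28.0 in wild type libraries; these did not overlap, but it did not pass (-1.73 ± 1.08 SE, 0.396). The other 22 tested members ranged from -0.997 (Rab40b) to 1.19 (Rab36) on the log2 scale, with overlapping groups and limma adjusted p from 0.494 to 0.998.

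To set each gene against its closest relative within a library, log2 ratios were formed for 12 paralogue pairs. The ratio of Rab8b to Rab8a was -0.08 ± 0.24 in Nupr1-/- libraries and 1.75 ± 0.62 in wild type libraries (SD, n = 4 each). Thus both genes stood at about the same normalised reads in Nupr1-/- libraries, while Rab8b exceeded Rab8a in all 4 wild type libraries. The difference was -1.83, with a two-sided exact permutation p of 0.0286, the smallest that 4 against 4 libraries can give, and 0.114 after adjustment over the 12 pairs. The ratio of Rab1 to Rab1b was 0.70 ± 0.61 in Nupr1-/- libraries and 2.35 ± 0.44 in wild type libraries. That of Rab40b to Rab40c was -2.72 ± 0.54 in Nupr1-/- libraries and -0.87 ± 0.18 in wild type libraries. Neither ratio overlapped between groups, with differences of -1.65 and -1.84 and the same exact p of 0.0286 (adjusted, 0.114). Rab40b was low, with 23, 11, 24 and 13 reads in Nupr1-/- libraries and 106, 47, 31 and 26 in wild type libraries. Rab40b and Rab40c did not pass as single genes (limma adjusted p 0.511 and 0.332). The ratios of Rab2a to Rab2b and Rab6a to Rab6b overlapped between groups, with differences of -1.01 (exact p = 0.143) and -1.04 (exact p = 0.0857). After adjustment 0 of 12 pairs passed; 3 had an unadjusted exact p below 0.05.

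**Figure D3:**
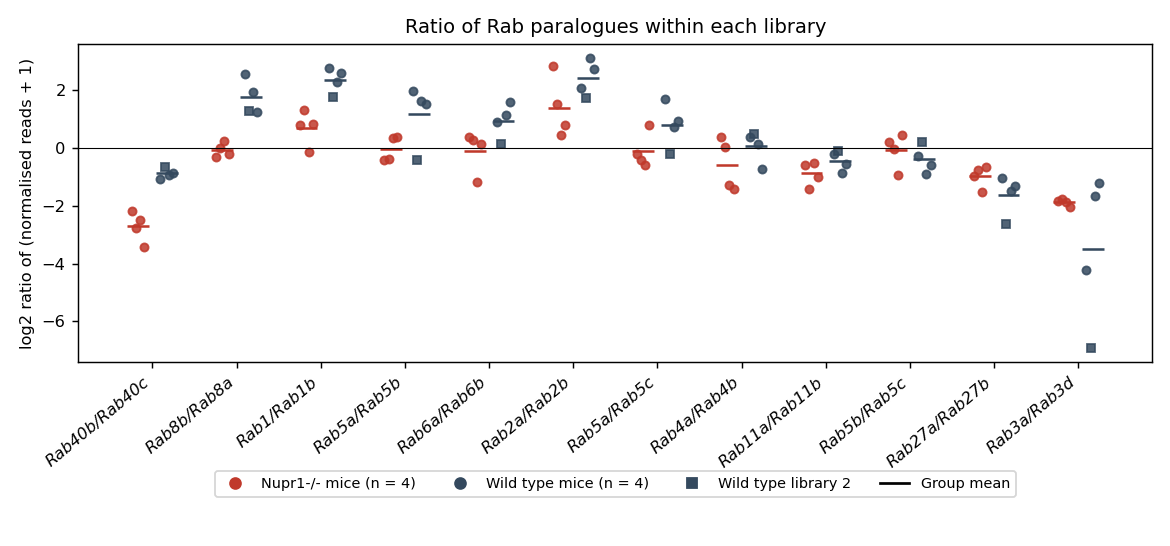
Log2 ratio of 2 Rab paralogues within each library (normalised reads plus 1) for 12 pairs; red points are Nupr1-/- libraries, blue points wild type libraries, the square wild type library 2, and bars group means. For Rab40b/Rab40c, Rab8b/Rab8a and Rab1/Rab1b all Nupr1-/- points lie below all wild type points.

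Base composition moved with these differences. The longest transcripts of the 6 Rab genes that fell had 39.8% to 48.7% GC (median 43.5%), against a median of 49.4% for the other 42 tested members and 49.5% for all tested genes. Across the 48 members GC content and log2 difference correlated with Pearson's r = 0.50 and Spearman's rho = 0.56, and across 10892 genes with 0.40 and 0.45. These are correlations across genes of the same 8 libraries, which are not independent replicates. Within libraries, GC content correlated with a gene's deviation from its mean over libraries at rho 0.150 to 0.301 in the 4 Nupr1-/- libraries and at -0.303 to -0.138 in the 4 wild type libraries. When each library's trend with GC and transcript length was removed, 0 of 48 Rab genes passed, as did 24 of 10892 genes (0.22%). The log2 differences were then -0.97 for Rab8b, -0.91 for Rab2a, -0.56 for Rab18, -1.07 for Rab6a, -0.87 for Rab7 and -1.11 for Rab21, with limma adjusted p from 0.0994 for Rab7 to 0.374 for Rab18. The ratio of Rab8b to Rab8a differed by -1.23 after removal (exact p = 0.0286, adjusted 0.171), that of Rab40b to Rab40c by -1.53 (exact p = 0.0286, adjusted 0.171), and that of Rab1 to Rab1b by -0.70 (exact p = 0.114, adjusted 0.343). Because the trends had opposite signs in the groups, their removal also takes out any group difference that runs with GC content. The part of base composition in these differences was not tested further.

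**Figure D4:**
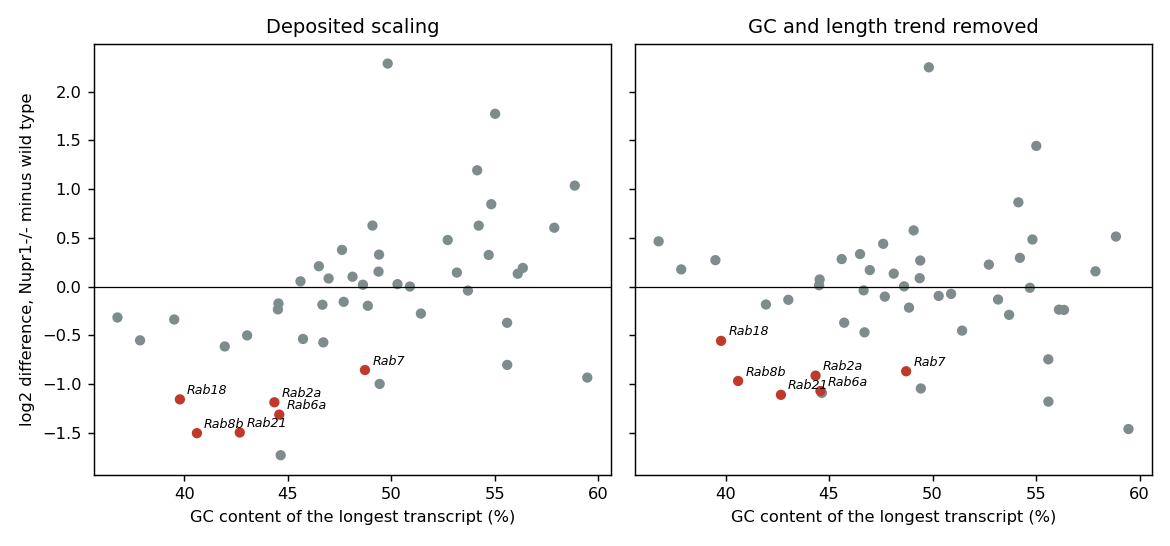
Log2 difference, Nupr1-/- minus wild type, against GC content of the longest transcript for the 48 tested members, as deposited (left) and after removing each library's trend with GC and length (right); the 6 genes that fell are red. The upward slope on the left (r = 0.50) is nearly flat on the right (r = 0.09), which follows from the removal itself. On the right the 6 genes stay between -1.11 and -0.56.

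Single libraries also bore on the calls. Rab8b passed with any 1 of the 8 libraries left out (highest limma adjusted p 0.0442, without Nupr1-/- library 2). Rab2a passed only without Nupr1-/- library 3 or wild type library 2; Rab18, Rab6a and Rab7 only without Nupr1-/- library 4 or wild type library 2; and Rab21 only without wild type library 2. Their highest limma adjusted p on leaving out 1 library lay between 0.0901 for Rab18 and 0.120 for Rab21, and all differences stayed negative. Without wild type libraries 3 and 4 only Rab8b passed (limma adjusted p = 0.0363), in a comparison of 4 with 2 libraries, and all 6 differences were negative. Over all genes 44 of 10989 passed in that comparison. Without wild type library 2, 8 members passed, the 6 and Rab14, all lower, and Rab1b, higher. In that fit 881 of 10989 genes passed, against 418 of 10989 with all 8 libraries.

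The bases upstream of the start site are shown for the 4 genes that fell and have a RefSeq promoter that can be shown, to print the letters behind the promoter counts given here. Each is the 250 bases before the RefSeq start (GRCm38.p6), on the gene's strand, 5′ to 3′; capitals mark matches to the motifs named below on either strand. Rab8b is at chr9:66919706-66919955, minus strand, Rab6a at chr7:100607336-100607585, plus strand, Rab7 at chr6:88045271-88045520, minus strand, and Rab21 at chr10:115315592-115315841, minus strand.
Rab8b: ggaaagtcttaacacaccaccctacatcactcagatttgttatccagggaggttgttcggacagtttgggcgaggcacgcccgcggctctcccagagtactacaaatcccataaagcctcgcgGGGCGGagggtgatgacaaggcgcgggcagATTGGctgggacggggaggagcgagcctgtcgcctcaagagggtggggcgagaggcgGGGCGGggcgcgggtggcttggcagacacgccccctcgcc
Rab6a: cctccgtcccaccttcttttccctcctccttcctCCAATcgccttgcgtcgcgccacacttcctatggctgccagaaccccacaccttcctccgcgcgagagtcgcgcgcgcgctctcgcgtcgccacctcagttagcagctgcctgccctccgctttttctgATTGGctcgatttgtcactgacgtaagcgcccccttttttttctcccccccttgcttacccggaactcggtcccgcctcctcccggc
Rab7: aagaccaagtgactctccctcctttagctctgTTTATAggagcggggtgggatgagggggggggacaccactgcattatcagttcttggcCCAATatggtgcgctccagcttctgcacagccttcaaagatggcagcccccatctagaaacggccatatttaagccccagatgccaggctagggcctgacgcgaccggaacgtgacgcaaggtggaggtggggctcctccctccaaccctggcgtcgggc
Rab21: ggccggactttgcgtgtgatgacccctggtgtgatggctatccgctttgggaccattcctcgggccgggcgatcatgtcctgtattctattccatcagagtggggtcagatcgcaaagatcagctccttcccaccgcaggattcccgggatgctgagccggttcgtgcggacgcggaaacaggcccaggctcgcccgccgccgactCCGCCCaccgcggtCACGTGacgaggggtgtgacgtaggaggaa
These stretches held 64.4%, 62.8%, 59.2% and 63.2% GC in the order printed. For Rab6a the GENCODE gene starts 176 bases upstream of the RefSeq start, so most of its stretch lies inside the annotated gene. Rab7 has a further RefSeq promoter, not printed, with 71.2% GC and a GGGCGG match. Over 50 promoters of 41 tested Rab genes the median was 62.4%, against 52.4% over 32851 mouse promoters. The letters GGGCGG (GC box) occurred in 70% of the Rab promoters and 32.7% of all promoters, CCAAT in 46% and 33.8%, CACGTG in 12% and 6.02%, TATAAA in 4% and 12.4%, and TGACGTCA in 2% and 1.55%. Of 5 promoters of genes that fell, 60% held GGGCGG and 60% CCAAT. These Rab promoters belong to genes that were tested here, while the 32851 were not limited to tested genes. The part of that difference between the sets in these shares was not tested. A match describes the letters only.

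Under limma the share of Rab regulators that passed in either direction was near that of all genes, but all that passed rose. Of 118 tested GEFs, GAPs, escort and prenylation factors and effectors, 4 rose (3.39%) and 0 fell. Among all genes 3.8% passed in either direction, 1.68% rose and 2.12% fell. The 4 were 1 of 37 GEFs, 2 of 34 GAPs and 1 of 39 effectors. The median log2 difference of the 118 was 0.22, and 0.04 once each library's GC and length trend was removed. Their transcripts had a median of 51.8% GC, against 49.5% over all tested genes. Rin3, a GEF of the Rab5 family, rose to 315 ± 65.0 normalised reads in Nupr1-/- HSCs, against 134 ± 76.1 in wild type HSCs (log2 difference 1.37, limma adjusted p = 0.0493). The GAPs Tbc1d9b and Tbc1d17 rose as well. Tbc1d9b averaged 672 ± 77.2 in Nupr1-/- HSCs and 317 ± 102 in wild type HSCs (1.13, 0.0203), and Tbc1d17 averaged 371 ± 27.1 in Nupr1-/- HSCs and 177 ± 67.9 in wild type HSCs (1.15, 0.0473). Micall2, an effector of Rab13 and Rab8, rose to 195 ± 44.2, against 60.1 ± 37.3 in wild type HSCs (1.90, 0.0388). Tbc1d17 shares 3423 bp of exon with Il4i1 on the opposite strand, which was not analysed here, so some of its reads could belong to either gene. The groups did not overlap for any of the 4. Among all 118 regulators the groups did not overlap for 15, of which 3 were lower, against 1284 of 10989 genes (11.7%). DESeq2 called 13 of the 118 regulators, 12 higher and 1 lower. Over all genes it called 775 of 10989 (7.05%), 333 higher and 442 lower. Of 8 prenylation and membrane cycling genes 0 passed. Chm, the escort protein REP1, had 16.0, 36.2, 0 and 14.8 normalised reads in Nupr1-/- libraries and 56.4, 28.6, 96.7 and 175 in wild type libraries (-2.88 ± 1.03 SE, limma adjusted p = 0.127). Gdi2, which extracts GDP-bound Rabs from membranes, averaged 1170 ± 201 in Nupr1-/- HSCs and 1578 ± 248 in wild type HSCs (-0.44, 0.195). The transcripts of the 4 that rose had 55.2% to 59.0% GC, and 0 passed once the GC and length trend was removed. On leaving out 1 library, Rin3 and Tbc1d17 passed only without wild type library 2, Tbc1d9b only without wild type library 2 or 3, and Micall2 only without wild type library 1, 2 or 4; their highest limma adjusted p lay between 0.0628 for Tbc1d9b and 0.167 for Rin3.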

How the data were processed

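PolyA RNA of sorted HSCs was sequenced from 4 Nupr1-/- and 4 wild type mice, 1 library each. Per the submitters' processing notes the tools included bcl2fastq, HISAT2, featureCounts (Subread) and DESeq2 with mm10, with no version given. The authors deposited a table of 11855 rows whose values are a normalised signal, not whole numbers. In each library every value was a whole multiple of 1 step (100% within 0.001 of a whole number). This gave back 2296101 to 4769401 reads. Each step equalled the reciprocal of the library's median-of-ratios size factor, as DESeq2 computes it. Every row was above 0 in at least 3 libraries, so absent genes cannot be read from this table. One unnamed row was left out; it held at most 0.00109% of a library's values.

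Values were tested as log2(value + 1) with limma 3.58.1 (R 4.3.3; moderated test with trend and robust settings, no covariate) over 10989 genes with at least 10 in at least 4 libraries, with Benjamini-Hochberg adjustment over all of them; differences of genes with values near 0 in some libraries depend on the added value and the tool. The script was tested on simulated data. Group means are mean ± SD of normalised values. Gene positions, GC content and overlaps came from GENCODE M21, which matched 11719 of 11853 symbols and all 49 members; promoters came from RefSeq. The 50-base stretches are those of each gene's annotated transcripts, searched in all others on both strands. Paralogue ratios used exact permutation over 70 assignments. Named genes were the members that passed, further members by smallest p up to 20, the 5 of highest level per kilobase, paralogues of members that passed, Rab3ip, and of each regulator list the genes that passed or, with none, the 2 of smallest p; Xist and Mrpl48 were added after values were seen. Members and lists were chosen with earlier results of these data known. Alternatives were other added values and filters, edgeR 4.0.16, DESeq2 1.42.0 and limma-voom on recovered reads, other scalings, removal of GC and length trends, a replicate block, leaving out each library and leaving out wild type libraries 3 and 4 together.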

Additional observations from a re-analysis of the deposited data

Results flagged for a closer look

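For Rab genes, 3 values stood apart from the other 3 libraries of their group, out of 98 groups examined; chance alone flags about 1 group in 20. Rab5c had 310 normalised reads in Nupr1-/- library 3, against 104 to 135 in the other 3 Nupr1-/- libraries. Rab21 had 141 normalised reads in wild type library 4, against 166 to 170 in the other wild type libraries, and that value still lay above all Nupr1-/- libraries. Rab44, which was too low to test, had 69.5 normalised reads in wild type library 4, against 0 to 0.696 in the other wild type libraries. Rab5c and Rab44 are named because of these values.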

How the results depend on the processing

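All 6 Rab differences stayed negative under every alternative. Removal of each library's GC and length trend gave 0 Rab genes, 24 genes in all and 0 regulators, and the same without wild type library 2, an alternative added after seeing the data, gave 1 (Rab2a), 240 and 2, with a median Rab log2 difference of 0.039. The replicate numbers did not pair the mice (correlations of same-numbered libraries from -0.0566 to 0.0148), so the fit with a replicate block, with 3 Rab genes, 277 genes and 1 regulator, shows only how the counts move; block and GC removal together gave 0, 25 and 0. DESeq2 called 775 genes and 13 regulators (12 higher, 1 lower) and limma-voom 651 genes; limma-voom gave a median Rab difference of 0.041. Regulators numbered 2 with an added value of 0.5, 2 without the filter, 7 with a mean of at least 50, and 1 with edgeR under either TMM or RLE factors. Leaving out each library in turn gave 1 to 8 Rab genes, 49 to 881 genes, 0 to 8 regulators and median Rab differences from -0.23 to 0.022. Leaving out wild type libraries 3 and 4 together, also chosen after seeing the data, gave 1 Rab gene, 44 genes, 0 regulators and a median Rab difference of -0.29. Scaling by upper quartile, TMM or quantiles left 5 to 6 Rab genes, and edgeR 4, without Rab7 and Rab21. Rab21 also missed the threshold with quantiles, with an added value of 0.5 and without the filter (limma adjusted p 0.0521, 0.0511 and 0.0549). Over all named Rab and regulator genes and paralogue ratios under these alternatives, 633 values kept direction and side of the threshold, 25 that never passed changed sign (Rab11a and Rab27b, for example, were 0.27 and 0.18 after GC removal), 117 no longer passed, 3 newly passed and 0 changed sign while past it.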
